A study of Mus musculus with 75 samples.

Results

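The genes described here are 10 components of the machinery with which cells sense LPS (lipopolysaccharide, the endotoxin of the outer membrane of Gram-negative bacteria), out of 21051 gene symbols in the table of the untreated and 2 h experiments and 21076 in the table of the 24 h experiment. They were taken by symbol, and all 10 were found in both tables. They are the LPS-binding proteins Lbp and Cd14, the receptor Tlr4 with its partner Ly96 (MD-2), the related receptor Tlr2, the adaptors Myd88, Ticam1 (TRIF) and Ticam2 (TRAM), the brake Irak3 (IRAK-M) and the G protein-coupled receptor Gpr84.

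As background, LBP carries LPS to CD14, which passes it to the complex of TLR4 and MD-2. The loaded receptor signals through MyD88 from the cell surface, which leads to NF-kB and to cytokine genes, and through TRAM and TRIF from endosomes, which leads to type I interferon genes. Cells of the macrophage and monocyte lineage carry CD14, the receptor complex and its adaptors, and in the gut wall enteric glia lie beside macrophages of the muscle layer.

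The RNA came from cells labelled enteric glial cells, the glia of the gut's own nervous system, of adult mice of both sexes. Every mouse carried a transgenic reporter that expresses the green fluorescent protein eGFP in glia; strain and exact age are not given in the sources used here, nor is the way in which the cells were collected. The first experiment held untreated reporter mice, with 5 libraries of the colonic and 6 of the small-intestinal myenteric plexus (the nerve network between the muscle layers) and the same numbers of the submucosal plexus (the network nearer the epithelium). The second held the myenteric plexus 2 h after a single injection of LPS at 2 mg/kg into the peritoneum, or of PBS (phosphate-buffered saline), with 4 libraries in each of its 4 groups. All libraries of both experiments are labelled WT (wild type). The third held the myenteric plexus 24 h after the same injections in Gpr37WT reporter mice (wild type below) and Gpr37-/- reporter mice (knockout). Its small-intestinal groups held 6 wild-type PBS, 4 wild-type LPS, 4 knockout PBS and 5 knockout LPS libraries, and its colonic groups held 4, 5, 5 and 4 in the same order. Mouse numbers are labelled in the 24 h experiment, where the groups compared share no mouse. In the other 2 experiments the labels number the replicates but identify no animal, so that their p-values measure the spread between samples, which may be partly technical.

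Library totals ran from 2547296 to 9002546 counts in untreated mice, from 1990744 to 7883251 at 2 h and from 2882539 to 33283346 at 24 h. A gene at 3 counts corresponds to 0.329 to 1.11 CPM (read counts scaled to the TMM-adjusted library total) in untreated mice, to 0.359 to 1.46 CPM at 2 h and to 0.0933 to 1.09 CPM at 24 h, and lower levels are treated here as not distinguishable from 0 at this depth. The counts carry no molecular identifiers, so such limits cover counting error only. Gpr37 itself summed to 18 counts over the 18 knockout libraries, of which 17 held 3 or fewer, and to 1229 counts over the 19 libraries labelled wild type. Of the latter, 4 held 3 or fewer: both libraries of mouse 3 and the LPS colon libraries of mice 5 and 8. The small-intestinal library of mouse 8 held 100 Gpr37 counts. Because the counts of Gpr37 in mouse 3 go against its label, and the single library of mouse 5 held none, the group is called "labelled wild type" where it is compared. Results are given without mouse 3, and without both mice, where the call changes.

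The 7 glial markers (Sox10, S100b, Gfap, Erbb3, Foxd3, Entpd2 and Cdh19) were detected in all 16 groups, with a summed level of 1325 to 2847 CPM in untreated myenteric libraries and of 97.0 to 1419 CPM in submucosal ones. The 10 macrophage markers (among them Adgre1, Csf1r, C1qa and Lyz2) were also detected in all groups. Their sum was 182.2 to 3908 CPM in untreated myenteric libraries and 220.5 to 22559 CPM in submucosal ones. In bulk RNA of this kind, fewer cells of a type and less RNA per cell cannot be told apart, so levels of the LPS-sensing genes are levels of the whole sample. The plot of summed markers shows each library.

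**Figure D1:**
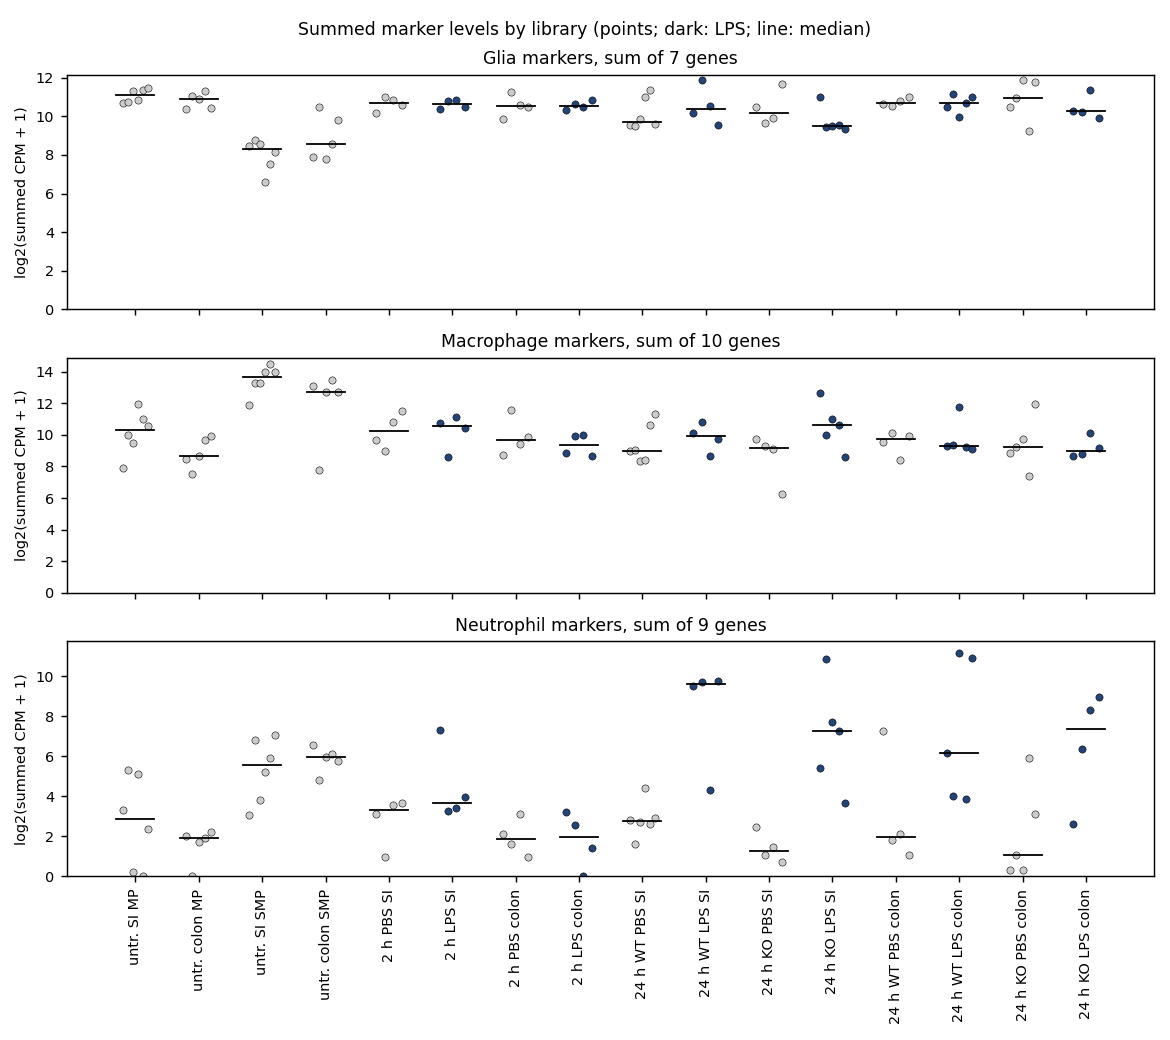
Summed level of 7 glial, 10 macrophage and 9 neutrophil markers, as log2(summed CPM + 1), in each of the 75 libraries, grouped by site, time, genotype (WT wild type, KO knockout) and treatment; dark points are LPS libraries and lines are medians. Macrophage markers were highest in the submucosal plexus of untreated mice (medians of 6845 CPM in colon and 13143 CPM in small intestine). Median sums of neutrophil markers at 24 h were 5.76 CPM with PBS and 792.4 CPM with LPS in the small intestine labelled wild type, and 2.90 and 69.5 CPM in the colon.

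RefSeq promoter windows (GRCm38.p6) matched 5 of the 10 genes: Tlr2, Myd88, Irak3, Gpr84 and Ticam1. The 250 bases before the RefSeq start are shown for the 3 of them that rose in the small intestine 2 h after LPS, Tlr2, Gpr84 and Myd88 (Myd88 was not called in the colon), and for Ticam1, which passed no test, each written 5′ to 3′ on the gene's strand. Tlr2 is the minus strand of chr3:83841609-83841858, Gpr84 that of chr15:103310439-103310688, Myd88 that of chr9:119340019-119340268 and Ticam1 that of chr17:56276768-56277017. Capitals mark matches to 4 motifs searched on both strands: the NF-kB consensus, TGANTCA (AP-1), an interferon-response motif (GAAA, any 2 bases, GAAA) and TTCNNNGAA (STAT).
Tlr2: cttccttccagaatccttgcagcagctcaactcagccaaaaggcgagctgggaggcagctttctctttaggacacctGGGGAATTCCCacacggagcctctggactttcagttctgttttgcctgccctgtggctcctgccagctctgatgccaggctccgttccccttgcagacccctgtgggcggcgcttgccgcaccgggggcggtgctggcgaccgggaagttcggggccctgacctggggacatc
Gpr84: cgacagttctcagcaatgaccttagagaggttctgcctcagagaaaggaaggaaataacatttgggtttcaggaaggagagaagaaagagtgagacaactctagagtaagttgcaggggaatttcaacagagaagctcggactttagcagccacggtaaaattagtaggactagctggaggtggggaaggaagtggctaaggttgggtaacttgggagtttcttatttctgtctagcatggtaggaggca
Myd88: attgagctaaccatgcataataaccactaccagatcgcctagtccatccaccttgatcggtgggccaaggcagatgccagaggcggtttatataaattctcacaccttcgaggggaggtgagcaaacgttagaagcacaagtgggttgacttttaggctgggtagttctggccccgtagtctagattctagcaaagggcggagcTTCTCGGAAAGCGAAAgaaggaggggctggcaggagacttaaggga
Ticam1: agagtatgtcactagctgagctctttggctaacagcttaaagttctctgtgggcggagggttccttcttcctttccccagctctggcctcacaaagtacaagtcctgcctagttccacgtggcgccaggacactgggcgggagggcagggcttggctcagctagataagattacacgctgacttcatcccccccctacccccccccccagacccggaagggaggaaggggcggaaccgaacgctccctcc

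The Tlr2 window holds overlapping NF-kB matches between 173 and 163 bases before the start. The Myd88 window holds an interferon-response match between 40 and 31 bases before the start and, overlapping it, a TTCNNNGAA match between 46 and 38 bases before it. In the GENCODE annotation given below, the whole Myd88 window lies inside the gene, so these positions hold for the RefSeq start only. The windows of Tlr2, Gpr84 and Ticam1 overlap their GENCODE genes in part. The windows of Gpr84, Ticam1 and Irak3 held no match to these letters. Of 32851 windows of the same length, 7.251% held the NF-kB consensus, 6.749% TGANTCA, 2.977% the interferon-response motif and 7.02% TTCNNNGAA, and a match describes the sequence only.

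In the GRCm38 annotation (GENCODE M21) all 10 are protein-coding genes. Lbp lies at chr2:158306493-158332852 and Cd14 at chr18:36725067-36726798. Tlr4 lies at chr4:66827584-66930284, Ly96 at chr1:16688051-16709611 and Tlr2 at chr3:83836272-83841767. Myd88 lies at chr9:119335934-119341411, Ticam1 at chr17:56269319-56276786 and Ticam2 at chr18:46557291-46574533. Irak3 lies at chr10:120141648-120202130 and Gpr84 at chr15:103308235-103310612. Some exons are shared with neighbours: Ticam2 with Tmed7 on the same strand over 838 bases, Myd88 with Acaa1a on the opposite strand over 290, Irak3 with Tmbim4 over 192 and with Gm47009 over 28, and Gpr84 with the antisense gene Gm49482 over 681. Whether the counting used strand is not given in the sources used here, so reads of these pairs cannot be told apart there.

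In untreated mice all 10 genes had counts in at least 1 site, and the largest differences called between sites were those of Cd14, Lbp and Ticam2. Gpr84 was too low to be tested. Per kilobase of exon (CPM per kb, the scale on which genes can be compared with one another), Cd14 was the highest of the 10 in 3 sites, at 15.8 ± 16.5 (SD, n = 6) in the small-intestinal myenteric, 70.9 ± 36.5 (SD, n = 5) in the colonic submucosal and 57.4 ± 32.2 (SD, n = 6) in the small-intestinal submucosal plexus. In the colonic myenteric plexus Lbp was highest, at 28.3 ± 21.2 CPM per kb (SD, n = 5). Myd88 was second in all 4 sites, at 10.5 ± 4.74 to 34.6 ± 9.80 CPM per kb, and Tlr4 ranked 5 or 6, at 4.71 ± 2.14 to 7.13 ± 3.89 CPM per kb. In the small-intestinal myenteric plexus 1 library at 48.4 CPM per kb raised the mean of Cd14. The rank of Cd14 above Myd88 there rests on that library.

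**Figure D2:**
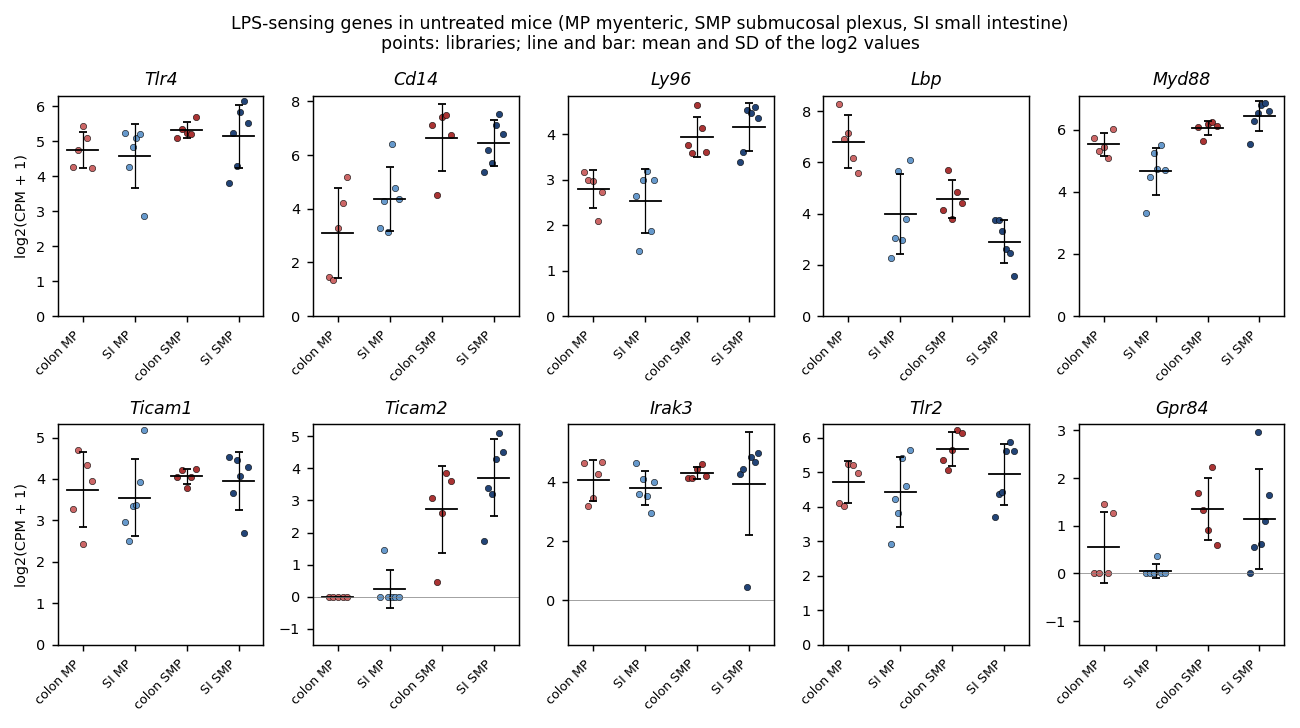
Level of each LPS-sensing gene in untreated mice, as log2(CPM + 1), at 4 sites (MP myenteric plexus, SMP submucosal plexus, SI small intestine); points are libraries, lines and bars the mean and SD of the log2 values. Ticam2 was at 0 in all 5 colonic myenteric libraries and above the level of 3 counts in 10 of 11 submucosal libraries.

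Lbp, the carrier of LPS in plasma, was higher in the colon. Its levels in the colonic myenteric plexus were 46.4, 70.2, 120, 139 and 307 CPM, against 3.86 to 68.1 CPM with a median of 10.0 in the small intestine. The 2 ranges overlapped, because 2 small-intestinal libraries lay above 50 CPM. The difference was 2.45 ± 0.66 on the log2 scale (log2 fold change and SE here and below, edgeR's quasi-likelihood test), with an adjusted p of 0.0456 (Benjamini-Hochberg over all genes tested, called under 0.05 throughout). It was the only one of 9 tested LPS-sensing genes called between the 2 regions in the myenteric plexus, where 3.19% of all 14090 genes tested were called. In none of the 9 were the groups free of overlap, against 3.14% of all genes. The call was lost with sex as a covariate (2.10, adjusted p = 0.0869), with a block for the replicate number (2.40, adjusted p = 0.107), with the compared groups alone (2.45, adjusted p = 0.1003), without the filter on low counts (2.40, adjusted p = 0.0503), and without any 1 of 7 of the 11 libraries (adjusted p of 0.0573 to 0.128). All 4 fibroblast markers (Pdgfra, Dpt, Lum and Dcn) were higher in the same comparison, as were 2 of 5 smooth muscle markers, and 4 of 6 neuronal markers were lower. Fibroblast markers summed to 2230 to 10318 CPM against 1072 to 1845 CPM in the small intestine, smooth muscle markers to 6500 to 20510 against 1121 to 7738 CPM, and neuronal markers to 64.0 to 202.8 against 385.2 to 1234 CPM. The part of these cells in the result was not tested.

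In the submucosal plexus Lbp was 12.7, 16.6, 20.2, 27.9 and 50.7 CPM in the colon and 1.95 to 12.3 CPM, with a median of 7.06, in the small intestine. These ranges did not overlap, as in 1 of the 9 genes and 5.66% of all genes, but the difference of 1.77 ± 0.67 was not called (adjusted p = 0.143). With edgeR, 0 of the 9 genes were called between regions in the submucosal plexus, against 5.18% of all genes; 1 had an unadjusted p under 0.05, against 17.7% of all genes, and DESeq2 called 0 as well.

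More of the 9 genes were called between the layers than between the regions, and so were more of all genes tested. In the colon 3 of 9 were higher in the submucosal than in the myenteric plexus and 1 was lower, against 21.8% of all genes called. Small-intestinal tissue gave 4 higher and 1 lower, against 43.5% of all genes. The layers did not overlap for 2 of 9 genes in the colon and 3 of 9 in the small intestine, against 12.6% and 25.5% of all genes. One of the colonic genes, Ticam2, counts only if a submucosal library at 2 counts is taken as above 0. The median difference of the 9 genes was 0.51 for colonic and 0.60 for small-intestinal tissue, against -0.01 and 0.06 over all genes tested. Macrophage markers moved with this comparison: 9 of 10 were higher in the submucosal plexus in colon tissue and 10 of 10 in small-intestinal tissue, as were 3 of 3 monocyte and 5 of 5 lymphocyte markers in both. Of 4 neutrophil markers tested, 2 and 1 were higher; the sum of all 9 was 0 to 3.68 CPM in the myenteric and 27.2 to 94.7 CPM in the submucosal plexus of colonic tissue, with no overlap, and 0 to 38.2 and 7.41 to 133.6 CPM in small-intestinal tissue. Glial markers moved the other way, with 3 of 7 lower in the colon and 7 of 7 in the small intestine. All 5 smooth muscle markers and all 4 mesothelial markers were lower in the submucosal plexus of both regions, the direction of Lbp. Smooth muscle markers summed to 714.2 to 2736 CPM against 6500 to 20510 CPM in the myenteric plexus of colonic tissue, and to 58.2 to 907.9 against 1121 to 7738 CPM in small-intestinal tissue. Of 6 neuronal markers 4 and 5 were lower, and of 5 epithelial markers 2 and 5 were higher, in colonic and small-intestinal tissue, and all 5 endothelial markers were lower in the latter alone. The part of any of these cell types in the results on the layers was not tested.

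Cd14, the surface protein that hands LPS to the receptor, was 21.6, 107, 138, 168 and 179 CPM in the colonic submucosal plexus, against 1.51, 1.74, 8.76, 17.3 and 35.0 CPM in the myenteric plexus. A single submucosal library, that of male 3 at 21.6 CPM, lay within the myenteric range. The same library held the 2 counts of Ticam2. Its macrophage sum of 220.5 CPM was the lowest of its group (median 6845 CPM). Its glial sum of 1419 CPM was the highest (median 383.8 CPM). The difference in Cd14 between the layers was 3.24 ± 0.79 (adjusted p = 0.00611), and 4.02 without colonic myenteric replicate 5. In the small intestine Cd14 was 1.87 ± 0.68 higher (adjusted p = 0.03), with 40.2 to 186 CPM (median 91.5) against 7.72 to 83.8 CPM (median 19.0). The last call was lost without any 1 of 7 of the 12 libraries, with adjusted p from 0.0535 to 0.0782, while the value was 2.62 without small-intestinal myenteric replicate 4.

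Of the receptors, Ly96, the co-receptor that holds LPS for TLR4, was 11.0 to 23.9 CPM (median 12.6) in the colonic submucosal plexus and 3.27 to 8.05 CPM (median 6.79) in the myenteric plexus, with no overlap. The difference was 1.29 ± 0.42 (adjusted p = 0.0325), and the call was lost with sex as a covariate (adjusted p = 0.0571), with the replicate block (1.01, adjusted p = 0.125) or without any 1 of 4 of the 10 libraries (0.052 to 0.103). In the small intestine it was 9.53 to 23.4 CPM (median 20.3) against 1.72 to 8.18 CPM (median 6.10), again without overlap, a difference of 1.75 ± 0.39 (adjusted p = 0.00114). Tlr4 itself ranged from 6.28 to 69.3 CPM over the 22 libraries. Its 4 sites overlapped, with means from 26.2 ± 11.9 CPM (SD, n = 6) in the small-intestinal myenteric plexus to 39.6 ± 21.6 CPM (SD, n = 6) in the small-intestinal submucosal plexus, and it was called in none of the 4 comparisons (adjusted p from 0.222 to 0.986). Tlr2, which recognises bacterial lipoproteins, likewise overlapped between all sites, with means from 25.3 ± 16.7 to 52.9 ± 18.0 CPM, and was not called.

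The tests gave different calls for the adaptors, which were not tested against each other. Ticam2, which bridges TLR4 to TRIF, was at 0 counts in the 5 colonic myenteric libraries and at 0.38, 5.06, 7.40, 11.2 and 13.5 CPM in the colonic submucosal ones, where the lowest rests on 2 counts. Against the limit set by 3 counts in each library it was at least 12.9-fold higher there (adjusted p = 0.00209). Of the small-intestinal libraries, 5 of 6 myenteric libraries were at 0 and the other at 1.72 CPM, against 2.33 to 33.2 CPM (median 14.0) in the submucosal plexus, a fitted difference of 5.83 ± 1.20 (adjusted p = 0.000837). That size rests on the 7 counts of 1 myenteric library, replicate 2: without it all myenteric libraries were at 0 and the fitted value was 9.46, so only the direction and the call are read from it. Myd88 was higher in the small-intestinal submucosal plexus, at 45.7 to 114 CPM (median 93.6) against 8.95 to 44.1 CPM (median 25.5), with no overlap and a difference of 1.72 ± 0.29 (adjusted p = 8.73e-05). In the colon its difference of 0.51 ± 0.31 was not called (adjusted p = 0.254). Ticam1 was not called between layers, nor was Irak3, with means of 13.2 ± 11.2 to 15.8 ± 6.29 CPM and of 13.8 ± 5.87 to 20.4 ± 10.8 CPM over the 4 sites.

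Lbp was the only one of the 10 that was lower in the submucosal plexus, with a difference of -2.41 ± 0.71 in the colon (adjusted p = 0.0189) and of -1.73 ± 0.65 in the small intestine (adjusted p = 0.0346). Leaving out the colonic myenteric replicate 1 (adjusted p = 0.0651) or the colonic submucosal replicate 4 (0.0519) ended the first call. The second was lost with the compared groups alone (adjusted p = 0.0617), with the replicate block (-1.53, adjusted p = 0.0915) and without any 1 of 5 of the 12 libraries (0.0679 to 0.156), with the smallest value, -1.10, without small-intestinal myenteric replicate 6. Gpr84, a receptor found mainly on myeloid cells, was at 0 to 1.75 CPM in the colonic and at 0 to 0.282 CPM in the small-intestinal myenteric plexus, and at 0.508 to 3.73 CPM and 0 to 6.83 CPM in the submucosal plexus. No library held more than 21 counts.

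At 2 h after LPS, 4 of the 9 genes tested rose in the small-intestinal myenteric plexus, against 1.1% of 13107 genes called in either direction and 1.08% called higher: Cd14, Tlr2, Myd88 and Gpr84. In the colon 3 of 9 rose, against 0.778% of all genes in either direction and 0.74% higher: Cd14, Tlr2 and Gpr84. None of the 9 fell. LPS and PBS libraries did not overlap for 4 and 3 of the 9 genes, against 5.49% and 3.85% of all genes. The median difference over the 9 was 1.56 for small-intestinal and 0.50 for colonic tissue, against -0.02 and -0.00224 over all genes tested. Tlr4, Ly96, Lbp, Ticam1 and Irak3 passed no test at this time, and Ticam2 was too low to be tested.

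**Figure D3:**
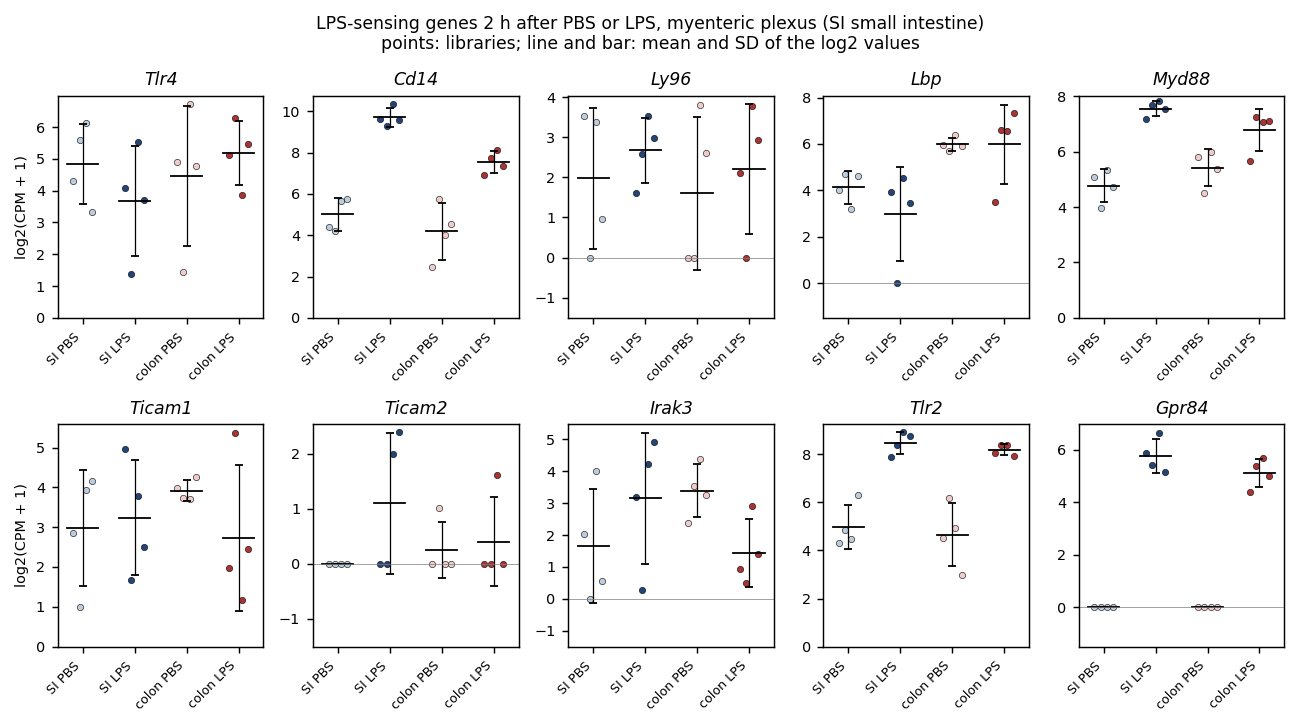
Level of each LPS-sensing gene 2 h after PBS or LPS in the myenteric plexus, as log2(CPM + 1) (SI small intestine); points are libraries, lines and bars the mean and SD of the log2 values, 4 libraries per group. Gpr84 was at 0 in all 8 PBS libraries and between 20.1 and 98.2 CPM in all 8 LPS libraries, and LPS and PBS did not overlap for Cd14 and Tlr2 in either region.

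Gpr84, which responds to medium-chain fatty acids, was at 0 with PBS and present in every LPS library. All 8 PBS libraries held 0 counts, while the small-intestinal LPS libraries stood at 34.0, 42.2, 58.3 and 98.2 CPM and the colonic ones at 20.1, 31.0, 40.5 and 50.1 CPM. Against 3 counts in each PBS library it was at least 75.4-fold higher in the small intestine (adjusted p = 0.000165) and at least 41.6-fold higher in the colon (adjusted p = 0.000629). Both calls held in every alternative and with any 1 library left out.

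Cd14 stood at 624, 778, 790 and 1323 CPM with LPS in the small intestine and at 17.5, 20.3, 49.2 and 53.5 CPM with PBS. The 2 groups lay far apart. This was a 24.8-fold rise (log2 4.63 ± 0.61, adjusted p = 0.000368). In the colon Cd14 was 121, 164, 212 and 283 CPM with LPS and 4.43, 15.3, 22.3 and 52.3 CPM with PBS, an 8.3-fold rise (log2 3.05 ± 0.58, adjusted p = 0.0129). The colonic call was lost with the compared groups alone (adjusted p = 0.0817) and without PBS colon replicate 3 (0.0717) or 4 (0.0573), while the value lay between 2.70 and 3.80 with any 1 library left out, the highest without PBS colon replicate 2.

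Tlr2 was 237, 330, 433 and 486 CPM with LPS and 18.8, 21.1, 27.8 and 79.1 CPM with PBS in the small intestine (log2 3.33 ± 0.59, adjusted p = 0.00471). In the colon it was 245, 268, 333 and 334 CPM with LPS and 6.89, 22.2, 29.7 and 72.4 CPM with PBS (3.18 ± 0.58, adjusted p = 0.0112). Neither pair of groups overlapped, and the rise was 10.1-fold and 9.05-fold. The log2 value was 4.05 without PBS small-intestinal replicate 4, and 3.92 in the colon without PBS colon replicate 2. The colonic call was lost without PBS colon replicate 1 (adjusted p = 0.0585) or 3 (0.0557).

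Myd88, the adaptor shared by nearly all Toll-like receptors, was 144, 186, 204 and 226 CPM with LPS against 14.6, 25.8, 32.7 and 39.3 CPM with PBS in the small intestine, a 6.72-fold rise (log2 2.75 ± 0.41, adjusted p = 0.00102). In the colon 3 LPS libraries were at 135, 139 and 153 CPM and the fourth at 49.5 CPM, within the PBS range of 21.7 to 62.7 CPM. The colonic difference of 1.39 ± 0.39 was not called (adjusted p = 0.199). DESeq2 called it (adjusted p = 0.0312), as did edgeR without LPS colon replicate 1, the library at 49.5 CPM (1.67, adjusted p = 0.0395).

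The receptor that gives the complex its name did not pass the test. Tlr4 was 1.61, 12.1, 15.8 and 45.6 CPM with LPS and 9.10, 18.6, 47.8 and 69.1 CPM with PBS in the small intestine (-0.94 ± 0.97, adjusted p = 1), and in the colon it was 13.6 to 77.4 CPM and 1.70 to 105 CPM (0.05 ± 0.96, adjusted p = 1). Ly96 lay between 0 and 13.0 CPM in all 4 groups. The SEs of Tlr4, Ly96, Ticam1 and Irak3 ran from 0.96 to 1.67, so that differences of a few fold were not detectable at this number of libraries. Irak3, which slows signalling through MyD88, was 0.201, 8.19, 17.8 and 29.3 CPM with LPS in the small intestine and 0 to 15.1 CPM with PBS, and 0.401 to 6.57 CPM and 4.20 to 20.0 CPM in the colon, both with overlap. Lbp was 0, 9.93, 14.3 and 21.8 CPM with LPS and 8.03 to 24.9 CPM with PBS in small-intestinal tissue (-0.63 ± 0.85, adjusted p = 1), and 10.3, 92.0, 97.0 and 160 CPM against 51.3 to 81.7 CPM in colonic tissue (0.50 ± 0.84, adjusted p = 1). Ticam1 lay between 0.975 and 40.1 CPM in the 16 libraries. Ticam2 was above 0 in 4 of the 16, at 2.99 and 4.24 CPM with LPS in small-intestinal tissue, and in colonic tissue at 2.05 CPM in an LPS and 1.02 CPM in a PBS library.

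The difference between regions in the response to LPS was tested as an interaction. With edgeR, 0 of 9 genes were called, against 0% of all genes; 1 of the 9, Myd88, had an unadjusted p under 0.05 (-1.35 ± 0.55 for colon minus small intestine, unadjusted p = 0.0251, adjusted p = 1), against 3.45% of all genes, and DESeq2 called 0. For Cd14 the interaction was -1.58 ± 0.76 (adjusted p = 1) and for Tlr2 -0.15 ± 0.76 (adjusted p = 1). The value for Irak3 was farther from 0 and had a wide error, at -3.76 ± 1.99 (adjusted p = 1).

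No macrophage marker was called with LPS at 2 h. Their sum was 497.7 to 2883 CPM with PBS and 382.9 to 2205 CPM with LPS in the small intestine, and 430.3 to 3076 and 410.5 to 1024 CPM in the colon. Of the single markers, Cx3cr1 did not overlap in the colon, at 38.0 to 126.7 CPM with PBS and 0.223 to 27.4 CPM with LPS. In the small intestine Cx3cr1 overlapped, with medians of 57.8 and 17.5 CPM. The sum of the 9 neutrophil markers was 0.975 to 11.5 CPM with PBS and 8.64 to 159 CPM with LPS in the small intestine, where 7 markers (Ly6g, S100a8, S100a9, Ngp, Retnlg, Cxcr2 and Mmp8) were at 0 in every PBS library and 2 (Ngp and Mmp8) in every LPS library. In the colon it was 0.919 to 7.67 CPM with PBS and 0 to 8.25 CPM with LPS. The part of either cell type in the results at 2 h was not tested.

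At 24 h after LPS, 5 of the 10 genes were higher in the small intestine of mice labelled wild type, against 7.17% of 14903 genes called in either direction and 4.18% higher: Irak3, Cd14, Lbp, Tlr2 and Myd88. In the colon 2 of 10 were higher, against 7.96% of all genes and 3.96% higher: Tlr2 and Irak3. In knockout mice 2 were higher in the small intestine, Cd14 and Irak3, and 1 in the colon, Lbp, each against 0.718% of all genes in either direction and, for higher genes, 0.53% and 0.637%. None of the 10 was called lower. Groups did not overlap for 5 small-intestinal and 3 colonic genes in mice labelled wild type, against 13.4% and 13.5% of all genes, and for 5 and 2 in knockouts, against 6.6% and 3.44%. One of the 3 colonic genes, Ticam2, was lower with LPS and rests on a PBS library at 3 counts. The medians over the 10 were 1.75, 1.19, 1.41 and 1.08 in that order, against -0.13, -0.03, -0.05 and -0.07 over all genes tested.

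**Figure D4:**
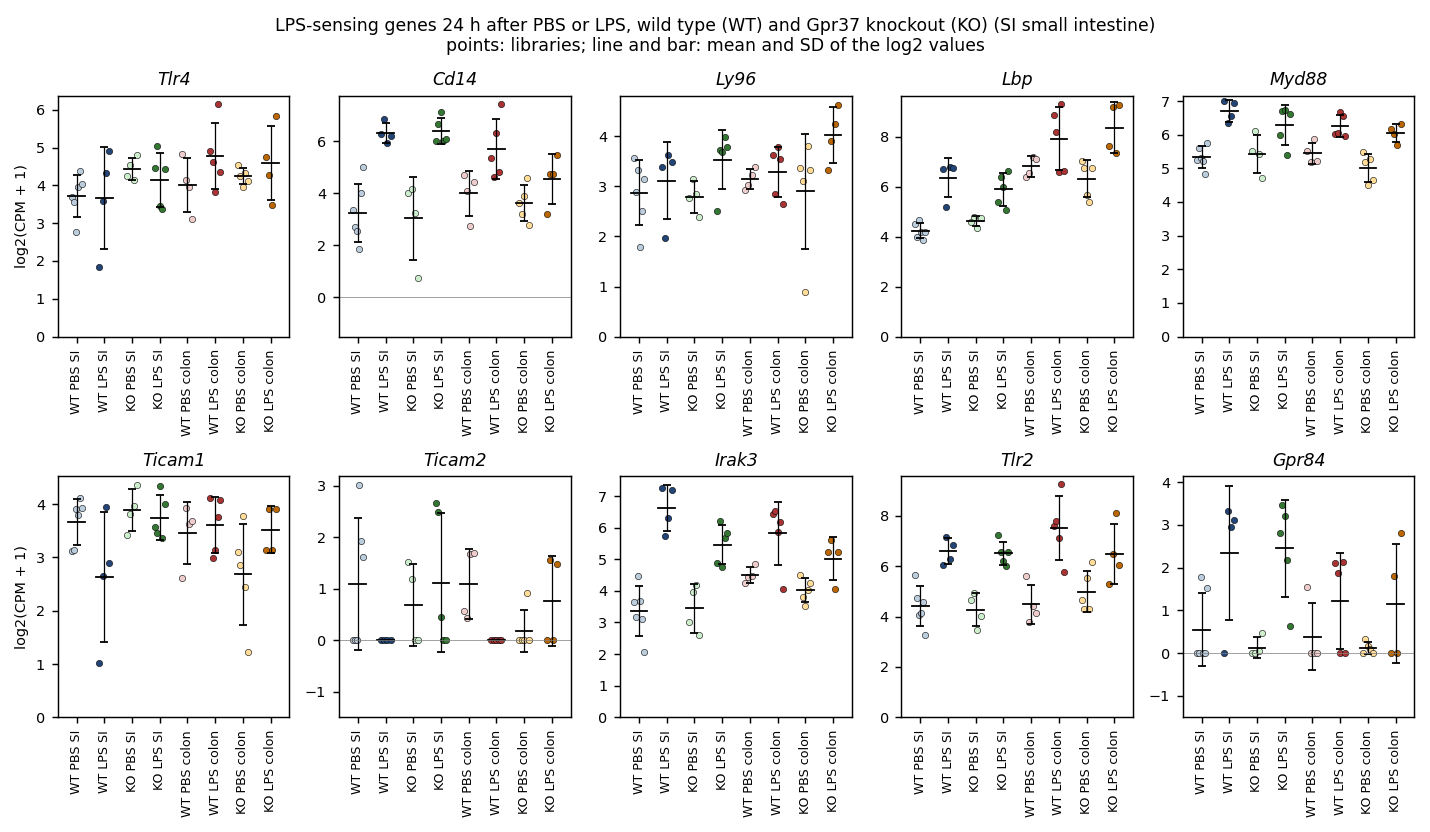
Level of each LPS-sensing gene 24 h after PBS or LPS in mice labelled wild type (WT) and in Gpr37 knockout mice (KO), as log2(CPM + 1) (SI small intestine); points are libraries, lines and bars the mean and SD of the log2 values. In the small intestine LPS and PBS libraries did not overlap for Cd14, Lbp, Irak3 and Tlr2 in either genotype, and Gpr84 was at or under 10.01 CPM in all 37 libraries.

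Irak3, the brake, had the largest difference of the tested genes in the small intestine of mice labelled wild type, leaving out Ticam2, whose LPS libraries were all at 0. It was 52.4, 77.2, 145 and 153 CPM with LPS and 3.22 to 21.3 CPM (median 9.69) with PBS, a 10.1-fold difference (log2 3.34 ± 0.45, adjusted p = 9.81e-06). In the colon it was 15.8, 57.1, 71.9, 85.9 and 90.5 CPM with LPS and 18.2, 20.6, 21.3 and 28.0 CPM with PBS, where the LPS library of mouse 8 lay below the PBS range. The colonic difference was 1.54 ± 0.48 (adjusted p = 0.0416), a call lost without mouse 3 (1.60, adjusted p = 0.0557), without mice 3 and 5 (1.57, adjusted p = 0.0821) and without any 1 of 8 of the 9 libraries (0.0551 to 0.104). In knockout mice Irak3 was 25.8, 28.5, 49.8, 55.4 and 72.5 CPM with LPS and 5.03, 7.03, 14.7 and 17.4 CPM with PBS in the small intestine (2.06 ± 0.49, adjusted p = 0.0338), and 15.5, 36.1, 36.7 and 47.3 CPM against 10.4 to 21.5 CPM in the colon (1.12 ± 0.46, adjusted p = 0.3002). The small-intestinal call in knockouts was lost with the compared groups alone (adjusted p = 0.103), with mice numbered 11 and above alone (0.0527) and without any 1 of 5 of the 9 libraries (0.0584 to 0.127).

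Of the LPS-binding proteins, Cd14 in the small intestine of mice labelled wild type was 59.7, 71.4, 76.2 and 114 CPM with LPS and 2.62 to 30.7 CPM (median 7.40) with PBS (2.82 ± 0.64, adjusted p = 0.00466), and the difference was 3.49 without PBS replicate 6. In knockouts it was 62.9, 63.6, 67.4, 100 and 138 CPM with LPS and 0.661, 8.49, 15.0 and 17.1 CPM with PBS (3.06 ± 0.73, adjusted p = 0.0351), and this call was lost with the compared groups alone (adjusted p = 0.109), with mice numbered 11 and above alone (0.115) and without any 1 of 7 of the 9 libraries (0.0572 to 0.118). In the colon Cd14 was 23.5, 26.8, 39.7, 78.1 and 169 CPM with LPS and 5.65, 15.9, 20.8 and 25.1 CPM with PBS in mice labelled wild type (2.00 ± 0.69, adjusted p = 0.0653), and 8.14 to 43.5 CPM against 5.86 to 23.1 CPM in knockouts (1.04 ± 0.66, adjusted p = 0.547). Groups overlapped in the colon and not in the small intestine. The colonic difference in mice labelled wild type was called by DESeq2 (2.09, adjusted p = 0.0151) and without LPS colon replicate 2 (2.22, adjusted p = 0.0454) or 4 (2.21, adjusted p = 0.048). With mice numbered 11 and above alone, which leaves out mice 3, 5 and 8, it was 0.93 (adjusted p = 0.461). Mice numbered 10 and below gave 3 of the 5 LPS and 0 of the 4 PBS colon libraries labelled wild type. In this comparison the division by mouse number therefore falls on the LPS side only.

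Lbp was 35.5, 105, 106 and 110 CPM with LPS in the small intestine of mice labelled wild type and 13.6 to 24.6 CPM (median 17.3) with PBS (2.28 ± 0.45, adjusted p = 0.00119). All LPS libraries were above all PBS libraries. In the colon the highest levels of Lbp in the experiment were found: 95.5, 99.0, 294, 472 and 643 CPM with LPS against 83.0, 93.2, 139 and 145 CPM with PBS in mice labelled wild type (1.48 ± 0.48, adjusted p = 0.0533), and 164, 197, 592 and 618 CPM against 40.8, 50.4, 107, 109 and 131 CPM in knockouts (2.17 ± 0.48, adjusted p = 0.0191). The colonic difference in mice labelled wild type was called in 5 of 9 alternatives other than leaving out a single library: by DESeq2 (adjusted p = 0.0147), with RLE size factors (0.0468), with the covariate for mice numbered 10 and below (0.0307), with mice numbered 11 and above alone (0.011) and without mouse 3 (1.72, adjusted p = 0.03). Without mice 3 and 5 it was not called (1.36, adjusted p = 0.0986). The colonic call in knockouts was lost with the compared groups alone (adjusted p = 0.197) and without any 1 of 4 of the 9 libraries (0.0517 to 0.0855). In the small intestine of knockouts Lbp was 32.7 to 97.5 CPM with LPS and 19.5 to 26.7 CPM with PBS, with no overlap, and was not called by edgeR (1.43 ± 0.49, adjusted p = 0.179), while DESeq2 called it (1.47, adjusted p = 0.0463).

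Tlr2 was 64.4, 77.9, 114 and 143 CPM with LPS in the small intestine of mice labelled wild type and 8.66 to 49.7 CPM (median 19.8) with PBS (2.10 ± 0.54, adjusted p = 0.0145), a call lost without the LPS library of mouse 8 (1.88, adjusted p = 0.0562). In the colon it was 53.0, 137, 191, 223 and 614 CPM with LPS and 12.8, 16.6, 20.5 and 47.4 CPM with PBS, a 10.0-fold difference (3.33 ± 0.64, adjusted p = 0.0015) that was called in every alternative and with any 1 library left out. Its size was less firm, at 2.71 without mice 3 and 5 and at 2.63 without mouse 5 alone (LPS colon replicate 4). In knockouts the difference was 2.25 ± 0.61 in the small intestine (adjusted p = 0.0751), where the groups did not overlap, and 1.72 ± 0.57 in the colon (adjusted p = 0.187). Neither was called, and the former was called by DESeq2 (adjusted p = 0.00394), with the compared groups alone (0.0458) and with mice numbered 11 and above alone (0.0441). The colonic value in knockouts ranged from 0.86 to 2.14 with 1 library left out.

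Myd88 was 79.7, 92.7, 123 and 128 CPM with LPS in the small intestine of mice labelled wild type and 27.3 to 52.7 CPM (median 37.7) with PBS (1.40 ± 0.27, adjusted p = 0.000729). In the other 3 comparisons its difference was 0.83 ± 0.28 to 1.03 ± 0.28 (adjusted p from 0.0635 to 0.161), and DESeq2 called all 3 (adjusted p from 0.0218 to 0.0482), as did the covariate for mice numbered 10 and below in the colon of mice labelled wild type (1.07, adjusted p = 0.0257). Of the TRIF arm, Ticam1 lay between 1.03 and 19.4 CPM in the 37 libraries and was not called in any of the 4 LPS comparisons. Ticam2 was at 0 counts in all 9 LPS libraries labelled wild type, while 3 of 6 small-intestinal and 4 of 4 colonic PBS libraries held it, at up to 7.12 CPM. These differences were not called (adjusted p = 0.115 in both regions).

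Tlr4 was 2.57, 11.0, 19.0 and 29.2 CPM with LPS and 5.77 to 19.8 CPM (median 13.3) with PBS in the small intestine of mice labelled wild type (0.25 ± 0.50, adjusted p = 0.832). Its difference was 0.91 ± 0.53 in the colon of mice labelled wild type (adjusted p = 0.297), -0.17 ± 0.52 in the small intestine of knockouts (adjusted p = 0.963) and 0.62 ± 0.52 in their colon (adjusted p = 0.684). Its levels in the colon were 13.2, 19.6, 23.7, 29.1 and 70.5 CPM with LPS and 7.62 to 27.6 CPM with PBS in mice labelled wild type, and 10.2, 18.5, 25.7 and 56.0 CPM against 14.6 to 22.1 CPM in knockouts, with overlap in both. Ly96 differed by 0.22 ± 0.52 to 1.02 ± 0.52 and was not called. Thus in all 6 comparisons of LPS with PBS the receptor and its partner passed no test, while Cd14 passed in 4, Tlr2 in 4, Myd88 in 2, Irak3 in 3, Lbp in 2 and Gpr84 in 2.

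Gpr84, the gene with the largest bound at 2 h, was at or under 10.01 CPM in all libraries at 24 h. With LPS it was 0, 6.77, 7.58 and 9.03 CPM in the small intestine of mice labelled wild type and 0.540, 3.53, 5.96, 8.23 and 10.01 CPM in that of knockouts, and it was at or under 6.02 CPM in the colon. With PBS it was at or under 2.44 CPM in all 4 groups. None of the 4 differences was called (adjusted p from 0.264 to 0.546). The 2 h and 24 h experiments were counted in separate tables and share no library, so the levels at the 2 times are given side by side and were not tested against each other.

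**Figure D5:**
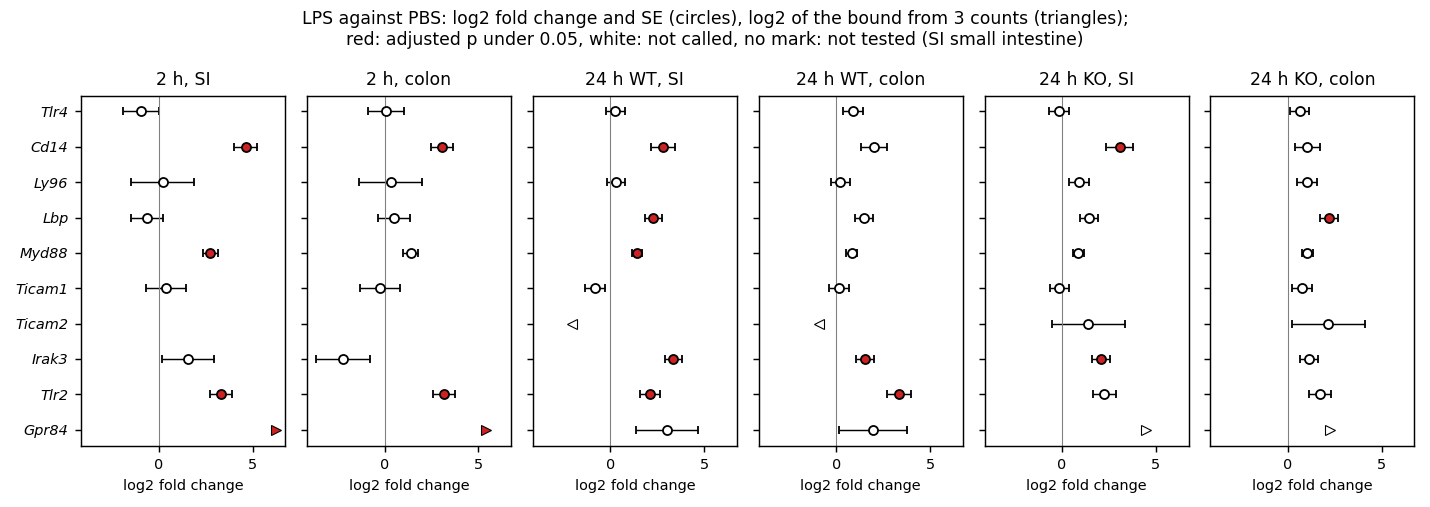
Log2 fold change of LPS against PBS with its SE (circles) for each gene in the 6 comparisons; triangles are the log2 of the ratio to the level of 3 counts in each library where a group held at most 3 counts in every library, red marks an adjusted p under 0.05, and genes without a mark were not tested (SI small intestine, WT labelled wild type, KO knockout). Cd14 was called in 4 of 6 panels and Tlr4 and Ly96 in none.

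Some neutrophil markers were higher with LPS at 24 h. Of 8 neutrophil markers tested, 5 (small intestine) and 2 (colon) were higher in mice labelled wild type, and 1 and 2 in knockouts. The sum of the 9 was 2.05 to 20.0 CPM with PBS and 19.2 to 853 CPM with LPS in the small intestine of mice labelled wild type, 0.661 to 4.56 and 11.8 to 1851 CPM in that of knockouts, 1.06 to 151 and 13.4 to 2327 CPM in the colon of mice labelled wild type and 0.243 to 59.9 and 5.07 to 505 CPM in that of knockouts. Cxcr2 was at 0 in every library of the 4 PBS groups, and also in every LPS colon library of mice labelled wild type. Ly6g was at 0 in every PBS library of the small intestine of mice labelled wild type. With LPS it had a median of 0.0912 and a maximum of 2.22 CPM there. In the colon Ly6g reached 59.9 CPM in a PBS library of knockouts and 200.3 CPM in an LPS library labelled wild type. Of the 3 monocyte markers, 1 was higher in the small intestine of mice labelled wild type. Their sum there was 15.1 to 197.6 CPM with PBS and 242.7 to 557.7 CPM with LPS, and in knockouts it was 0.397 to 47.6 and 114 to 833.3 CPM, with no overlap in either genotype. In colonic tissue the monocyte sums overlapped. Of the 10 macrophage markers 1, Cx3cr1, was lower with LPS in the small intestine of mice labelled wild type, the only call on them in the 4 comparisons. The macrophage sum was 321.2 to 2523 CPM with PBS (median 510) and 411.6 to 1824 CPM with LPS (median 975.3) in that group. In the small intestine of knockouts, where Cd14 and Irak3 were called, it was 75.8 to 863.8 CPM (median 580.3) and 394.9 to 6324 CPM (median 1566), and Cd68 (0.661 to 15.2 against 24.1 to 82.3 CPM) and Fcgr1 (1.06 to 6.93 against 13.4 to 75.6 CPM) did not overlap there. In colonic tissue it was 336 to 1097 and 561.1 to 3552 CPM in mice labelled wild type, and 165.9 to 3914 and 402.6 to 1100.2 CPM in knockouts. Cells of the neutrophil, monocyte and macrophage lineages also carry Cd14, Tlr2, Irak3 and Myd88, and the part of these cells in the results at 24 h was not tested. Other sums also differed without overlap. Fibroblast markers summed to 10600 to 18224 CPM with PBS and 186.2 to 8448 CPM with LPS in the colon of mice labelled wild type, and mesothelial markers to 498.7 to 2355 and 145.2 to 321.4 CPM in their small intestine, although none of these single markers was called. The part of these cells was not tested either.

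Genotype was compared within each treatment and region, and as the interaction of genotype with LPS. With edgeR, 0 of 10 genes were called in any of these 6 comparisons, and DESeq2 called 0 in each. Over all genes the share called was 0% with PBS in either region, 0.0134% with LPS in the small intestine, 0.429% with LPS in the colon and 0% for both interactions. At an unadjusted p under 0.05 there were 0 of 10 genes with PBS in either region, 2 with LPS in the small intestine, 2 with LPS in the colon and 1 for each interaction. The shares of all genes at that p were 1.72% and 4.22% with PBS, 7.63% and 16.4% with LPS and 3.88% and 13.5% for the interactions, in small intestine and colon.

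The genes at an unadjusted p under 0.05 were Irak3, Cd14 and Ticam2. With LPS in the small intestine Irak3 was 46.4 ± 19.5 CPM (SD, n = 5) in knockouts and 107 ± 49.7 CPM (SD, n = 4) in mice labelled wild type, a difference of -1.20 ± 0.46 (adjusted p = 0.485, edgeR), and its interaction was -1.28 ± 0.63 (adjusted p = 1). With LPS in the colon Cd14 was 25.9 ± 14.4 CPM (SD, n = 4) in knockouts and 67.5 ± 60.9 CPM (SD, n = 5) in mice labelled wild type (-1.39 ± 0.68, adjusted p = 0.303). This difference ranged from -1.76 to -0.70 with 1 library left out, and from -1.59 to -0.30 over the other alternatives. The groups overlapped in both cases. Fibroblast markers in the same LPS colon libraries summed to 1022 to 14741 CPM (median 14193) in knockouts and to 186.2 to 8448 CPM (median 2494) in mice labelled wild type, and their part in the comparison of genotypes was not tested. With LPS Ticam2 was at 0, 0, 0.358, 4.63 and 5.32 CPM in the small intestine and at 0, 0, 1.81 and 1.95 CPM in the colon of knockouts, against 0 in all 9 libraries labelled wild type (adjusted p = 0.497 and 0.243). For Tlr4 the genotype difference lay between -0.18 ± 0.53 and 0.68 ± 0.50 in the 4 groups.

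A wider list of 52 genes of the same pathway was followed in the same fits. At 2 h, 5 of 44 tested were higher in small-intestinal and 3 of 44 in colonic tissue, against 1.08% and 0.74% of all genes, and none was lower. Their medians over the 44 were 0.23 and -0.01. Tnfaip3 (A20), a ubiquitin-editing enzyme that limits NF-kB, rose from 5.53 ± 3.74 to 444 ± 83.7 CPM (SD, n = 4) in the small intestine (6.24 ± 0.99, adjusted p = 0.00183) and by 7.35 ± 1.07 in the colon (adjusted p = 0.00178). Tnip1, which works with A20, rose by 3.29 ± 0.63 and 3.15 ± 0.63 (adjusted p = 0.0103 and 0.0228). Atf3, a repressor of cytokine genes, rose by 4.48 ± 0.94 (adjusted p = 0.0221) and Casp4, the intracellular LPS sensor of mice known as caspase-11, by 2.65 ± 0.57 (adjusted p = 0.0281) in the small intestine. Dusp1, a phosphatase of MAP kinases, rose by 1.55 ± 0.35 in the colon (adjusted p = 0.0496).

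At 24 h, 5 (small intestine) and 4 (colon) of 48 pathway genes were higher in mice labelled wild type, and 2 in each region of knockouts, against 4.18%, 3.96%, 0.53% and 0.637% of all genes. Tnip1 and Casp4 were called in all 4. Tnip1 was higher by 2.63 ± 0.30 and 2.81 ± 0.34 in mice labelled wild type and by 1.87 ± 0.33 and 1.57 ± 0.31 in knockouts, in the small intestine and the colon. Casp4 was higher by 2.26 ± 0.40 and 2.44 ± 0.45, and by 1.78 ± 0.43 and 2.30 ± 0.42, in the same order. Traf6, a ubiquitin ligase of the MyD88 arm, was higher by 2.36 ± 0.56 in the small intestine labelled wild type. Tnfaip3 (3.39 ± 0.91 and 3.76 ± 1.06) and the scavenger receptor Msr1 (3.38 ± 1.07 and 4.19 ± 1.28) were called in both regions of mice labelled wild type. For the interaction of genotype with LPS, edgeR called 0 of 48 in either region, and 2 (small intestine) and 4 (colon) had an unadjusted p under 0.05, against 3.88% and 13.5% of all genes. The median over the 48 lay between 0.08 and 0.39 in the 4 comparisons.

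Between layers of untreated mice, 17 of 51 pathway genes were higher in the submucosal plexus in colon tissue and none lower, and 25 were higher and 4 lower in small-intestinal tissue, against 21.8% and 43.5% of all genes called in either direction. In the colon the largest fitted differences were those of the nucleic-acid and profilin receptors Tlr9, Tlr11 and Tlr12 and of Msr1 (4.66 ± 0.99). Tlr12 differed by 4.73 ± 1.32, from 1.21 ± 1.56 to 34.1 ± 20.5 CPM (SD, n = 5). Tlr9 went from 0.0219 ± 0.049 to 1.89 ± 2.85 CPM and Tlr11 from 0.0604 ± 0.135 to 2.27 ± 1.85 CPM. Tlr9 and Tlr11 lay under the level of 3 counts in the myenteric plexus, so only their direction and call are read. In small-intestinal tissue the largest fitted differences were those of Tlr6, Tlr12 (5.02 ± 1.21), Tlr11 (4.71 ± 1.09) and Cd180 (4.45 ± 1.20), a homologue of TLR4. Tlr6 was at 0 in all 6 myenteric libraries and at least 27.0-fold higher in the submucosal plexus. Between regions, Cd36, a scavenger receptor, differed by -2.54 ± 0.45 in the colonic against the small-intestinal myenteric plexus and Tlr6 was at least 1.46-fold higher; in the submucosal plexus Irak4, the kinase recruited by MyD88, differed by -0.75 ± 0.21 in the colon. Macrophage and lymphocyte markers moved with the comparison of layers, as given above.

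Over the 37 libraries at 24 h, the genes whose log2 CPM followed Tlr4 most closely were Stxbp3 (Pearson's r = 0.72), Cyp4v3 (0.71) and Adamts5 (0.71). Those closest to Cd14 were Ms4a6c (0.84), Ms4a6d (0.81) and Fcgr4 (0.81), and those closest to Gpr84 were Klhl2 (0.71), Atf4 (0.70) and Plaa (0.69). These are descriptions over libraries that share treatment groups, mice and depth.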

How the data were processed

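The authors deposited 2 tables of raw counts per gene symbol from Smart-seq2 libraries. The submitters' processing notes name Trim Galore 0.4.4, STAR 2.5.3, DESeq2 and GRCm38, with no role or order; the counter, annotation and strand setting are not given in the sources used here. All columns were mapped to samples by name. Each of 3 experiments was fitted within its table: filterByExpr left 14090, 13107 and 14903 genes, TMM factors were computed, and edgeR 4.0.16 (R 4.3.3) fitted all groups in one quasi-likelihood model, with 17 contrasts, two-sided, Benjamini-Hochberg over all genes tested. CPM values are scaled by TMM, with mean ± SD, and CPM per kb divides them by the union of exons in GENCODE M21. Where a group held at most 3 counts in every library, the fold is taken against the mean level of 3 counts per library of that group. Python 3.11.15 and matplotlib 3.10.9 made the figures.

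The 10 genes are always named; of the 52 other pathway genes, up to 4 called per comparison with the largest difference are named, with the statement of genes called in several comparisons chosen after their values were seen; and for Tlr4, Cd14 and Gpr84 the 3 most correlated genes with a mean log2 CPM of at least 3 are named. The genes, lists and tests were chosen with earlier results of these data known. The alternatives comprised keeping genes of low count, adding sex to the model, fitting only the groups compared, RLE normalization, the Wald test of DESeq2 1.42.0, a replicate block (untreated and 2 h), a covariate for mice numbered 10 and below, mice numbered 11 and above alone (24 h), and each library left out; leaving out mouse 3, or mice 3 and 5, was added after seeing the data. Another gene of the glial marker list is not reported here and does not enter the summed glial level.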

Additional observations from a re-analysis of the deposited data

Results flagged for a closer look

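In groups of 4 to 6 libraries, 17 values among 154 pairs of gene and group stood apart from the rest of their group by Dixon's criterion, a rule that chance meets in about 1 in 20 groups. Of the 17, 6 were the only library above 0 in their group, where the criterion is always met and that rate does not apply. In untreated mice these were 21.6 CPM of Cd14 and 48.8 CPM of Myd88 in the colonic submucosal library of male 3, 0.36 CPM of Irak3 in the small-intestinal submucosal library of male 3, 1.72 CPM of Ticam2 in the small-intestinal myenteric library of male 2 and 0.282 CPM of Gpr84 in that of female 1. At 2 h they were 49.5 CPM of Myd88 in the LPS colon library of female 1, and Ticam2 at 1.02 CPM in the PBS colon library of male 2 and at 2.05 CPM in the LPS colon library of female 3.

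At 24 h, mouse 8, labelled wild type, had low values after LPS for Ly96 (2.92 CPM) and Lbp (35.5 CPM) in the small intestine and for Irak3 (15.8 CPM) in the colon. Gpr84 was 0 in the small intestine of mouse 3 after LPS, where the other 3 libraries were at 6.77 to 9.03 CPM. In knockouts Ly96 was 4.68 CPM in the LPS small intestine of mouse 11 and 0.85 CPM in the PBS colon of mouse 1. The others were single libraries above groups at 0: Ticam2 at 0.888 CPM in the PBS colon of knockout mouse 20 and Gpr84 at 1.94 CPM in the PBS colon of mouse 14, labelled wild type. Gpr84 was 0.397 CPM in the PBS small intestine of knockout mouse 7, where the other libraries were at 0 to 0.0311 CPM.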

How the results depend on the processing

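Of 27 calls on the 10 genes, 19 held in every alternative other than leaving out a library, 15 held with any 1 library left out, and 0 changed direction. The number of genes called between regions of the untreated myenteric plexus fell from 1 to 0 without the low-count filter, with sex as a covariate, with the compared groups alone and with the replicate block. At 24 h, DESeq2 called 5 in the small intestine of knockouts, 5 in the colon of mice labelled wild type and 2 in the colon of knockouts; the compared groups alone gave 1, 1 and 0. Mice numbered 11 and above alone gave 1 in the small intestine of knockouts. In the colon of mice labelled wild type, no low-count filter gave 1, leaving out mice 3 and 5 gave 1 and the covariate for mice numbered 10 and below gave 4. The cause was not tested.

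With each library left out, the number called ranged from 0 to 1 between regions of the myenteric plexus, from 2 to 4 and from 3 to 6 between layers of colon and small intestine, and was 4 at 2 h in the small intestine and 1 to 4 in the colon. At 24 h it was 4 to 5 and 1 to 3 in small intestine and colon labelled wild type and 0 to 2 and 0 to 1 in knockouts; it stayed at 0 between regions of the submucosal plexus and in all genotype and interaction comparisons.

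Values that changed sign were not called. Between sites and genotypes and for the interactions, 36 of 77 values with an unadjusted p of 0.1 or more changed sign under at least 1 alternative. The Tlr4 difference in the small intestine of knockouts was 0.42 with mice numbered 11 and above alone. With a library left out, it ranged from -0.44 to 0.0325 there, from -0.42 to 1.13 in the colon at 2 h and from -0.20 to 0.60 in the small intestine labelled wild type. Ly96 ranged from -0.19 to 0.80 and from -0.44 to 1.72 in small intestine and colon at 2 h. Ticam1 ranged from -0.55 to 0.80 and from -2.31 to 0.14 there, from -0.33 to 0.12 in the small intestine of knockouts and from -0.0163 to 0.33 in the colon labelled wild type. Ly96 in the colon labelled wild type was -0.036 without mice 3 and 5. Ticam2 between regions of the untreated myenteric plexus ranged from -3.89 to 0, where both groups were at 0.

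The untreated and 2 h libraries share replicate numbers. Same-numbered libraries deviated together with a mean correlation of 0.0928 and 0.0602, above 0.1 in 10 of 30 and 5 of 24 pairs. Libraries of the same mouse at 24 h, known from the labels, gave 0.121, above 0.1 in 10 of 15 pairs. Labelled pairs thus scored low as well, so these values cannot decide whether same-numbered libraries share an animal. The main fit did not pair them. The replicate block changed no call at 2 h and, besides the loss of Lbp between regions (2.40, adjusted p = 0.107), ended those of Ly96 in the colon (1.01, adjusted p = 0.125) and Lbp in the small intestine (-1.53, adjusted p = 0.0915) between layers. Depth and the number of libraries limit Ticam2 and Gpr84, which held 3 or fewer counts in many libraries.

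The number of all genes called also moved. DESeq2 called 987 and 1149 between regions of the myenteric and submucosal plexus (edgeR 449 and 730), 260 and 276 with LPS at 2 h in small intestine and colon (144 and 102), 1859 and 2255 at 24 h labelled wild type (1069 and 1186), 527 and 474 in knockouts (107 and 107), and 182 and 712 between genotypes after LPS (2 and 64). The compared groups alone gave 1902 between layers of the colon (3069), 63 at 2 h in the colon, 412 in the colon labelled wild type, 47 and 7 in small intestine and colon of knockouts, and 0 between genotypes after LPS in both regions. Without mice 3 and 5 there were 770 in the colon labelled wild type and 11 between genotypes after LPS in the colon, where leaving out mouse 3 gave 14. Where edgeR called 0, DESeq2 called 44 for the interaction at 2 h, 58 and 74 between genotypes with PBS, and 59 and 340 for the genotype interactions; unadjusted p was under 0.05 for 452, 256, 629, 578 and 2009 genes.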
